A study of Mus musculus with 18 samples.

Results

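Nuclear pore and nuclear transport genes were followed in embryonic stem (ES) cells grown under different conditions. The transgenic 743 ES cells of the FVB/N mouse strain overexpress STAT3-MER, which is STAT3 fused to a modified ligand-binding domain of the mouse estrogen receptor and driven by the chicken beta-actin promoter, and they were grown with 4-hydroxytamoxifen (OHT), the ligand of that domain, and without leukaemia inhibitory factor (LIF). Wild type (WT) FVB/N ES cells were grown with LIF, which activates the STAT3 of the cell itself. Both carry the FVB/N background, and each group is 1 cell line, so the line, the transgene, OHT and the absence of LIF cannot be told apart. Each group consisted of 3 independently cultivated dishes, and the RNA of each dish was hybridized to the Affymetrix chips U74Av2, U74Bv2 and U74Cv2, which makes 18 arrays. Both lines had been established on embryonic feeder fibroblasts of CD-1-M-TKneo mice. The members are all probe sets whose chip annotation gives exactly 1 gene symbol and whose symbol starts with Nup, Kpn, Ipo, Xpo or Ranb. This gave 103 of the 36701 probe sets that are not controls, for 49 genes, with 39 on U74Av2, 38 on U74Bv2 and 26 on U74Cv2. Another 3 probe sets that pair such a gene with others were left out. Nupr1 and Nupr1l share the letters only, since they encode stress-induced nuclear proteins, and they were set apart, which left 101 probe sets of 47 genes, namely 47 probe sets of nucleoporins, 32 of importins, 13 of exportins and 9 of Ran-binding proteins. These families follow the gene symbols and not the function of each protein. Ranbp2 (Nup358), for example, is a nucleoporin that counts here as Ran-binding.

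The nuclear pore complex is the channel through the nuclear envelope. Its scaffold consists of the Y complex and the inner ring, its centre is filled with nucleoporins rich in phenylalanine-glycine (FG) repeats, and filaments on the cytoplasmic side and a basket on the nuclear side carry further nucleoporins. Importin alpha binds a nuclear localization signal and is carried through the channel by importin beta, exportins carry cargo out, and the small GTPase Ran gives the direction. In mouse ES cells the importin alpha encoded by Kpna2 is known as the form that brings OCT-3/4 into the nucleus, and Nup153, an FG nucleoporin of the basket, is known to bind chromatin.

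The promoters of the genes which the comparison turns on were read first. RefSeq promoters of GRCm38.p6 were at hand for 38 of the 47 genes, as 43 start sites, and the 250 bases before each start were searched. The palindrome TTCNNNGAA, the core bound by STAT proteins, was present in 1 of the 43 promoters, that of Nup107, against 7.02% of all 32851 promoters. The GC box (GGGCGG, or CCGCCC on the other strand) was present in 28 of the 43, or 65.1%, against 32.7% of all promoters. The sequence of Nup153 is given because its probe set is followed below, and that of Nup107 because it holds the single match to the STAT core. Both are written 5′ to 3′ on the strand of the gene and end at the base before the start. The promoter of Nup153 (minus strand, chr13:46727850-46728099) has 2 GC boxes, in capitals, and none of the letters of the STAT core in this window. The promoter of Nup107 (minus strand, chr10:117792706-117792955) has the STAT core in capitals, which starts 242 bases before the start.
Nup153: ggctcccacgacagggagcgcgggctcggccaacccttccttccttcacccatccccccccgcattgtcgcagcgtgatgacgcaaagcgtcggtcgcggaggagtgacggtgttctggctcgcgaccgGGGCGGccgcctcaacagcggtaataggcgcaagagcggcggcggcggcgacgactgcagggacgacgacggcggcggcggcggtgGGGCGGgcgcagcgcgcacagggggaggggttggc
Nup107: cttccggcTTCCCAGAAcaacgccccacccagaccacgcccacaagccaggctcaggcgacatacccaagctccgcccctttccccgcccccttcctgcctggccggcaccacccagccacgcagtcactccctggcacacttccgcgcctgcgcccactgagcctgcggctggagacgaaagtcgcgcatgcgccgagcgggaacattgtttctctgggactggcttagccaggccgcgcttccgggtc
A match is a description of the letters and does not show binding.

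The data are linear signal intensities without detection calls, and the trimmed mean of every array lay between 500.1 and 500.3. Differences were fitted with limma on log2(signal + 32) as STAT3-MER minus WT, and p-values were adjusted over all 36701 probe sets. In all of them, 1 probe set passed an adjusted p of 0.05. It was Esr1 93945_at, which reads the receptor part of the transgene and had signals of 25848, 25568 and 31548 in the STAT3-MER dishes, against 40.3, 19.7 and 9.25 in the WT dishes. The other Esr1 probe sets, with log2 differences from -0.68 to 0.38, and those of Stat3, from -0.24 to 0.51, did not pass (adjusted p = 0.9996 for each by limma). On U74Av2 the summed signal of 9 ES cell markers was 59682 to 70493 in STAT3-MER dishes and 55135 to 81636 in WT dishes, and Nanog and OCT-3/4 (Pou5f1) were read in all dishes. The summed signal of 17 of 18 listed feeder fibroblast markers, none of which was at 0, was uneven within both groups, with 14970, 61586 and 46505 in STAT3-MER dishes 1 to 3 and 54393, 24322 and 56595 in WT dishes 1 to 3. A dish with less of a signal may hold fewer cells of that type or less RNA per cell, and these cannot be told apart.

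None of the nuclear transport probe sets changed past the threshold. The count was 0 of 101 by limma at an adjusted p of 0.05, against 0.00272% of all probe sets, and the smallest adjusted p among the members was 0.9996. At an unadjusted p of 0.05 there were 0 higher and 2 lower members, the exportin Xpo7 (95526_at) and Nup153 (138014_at), while 3.45% of all probe sets had such a p, 1.88% higher and 1.57% lower. The methods' t-test on the same signals gave 0 members after Benjamini-Hochberg adjustment. The 3 STAT3-MER dishes and the 3 WT dishes did not overlap for 7 of the 101 members, or 6.93%, against 8.13% of all probe sets. Of these 7, 4 were higher in STAT3-MER (Nup107, Nup62, Nupl1 and Ipo7) and 3 were lower (Nup153, Kpna3 and Kpna6), while 4.5% of all probe sets were higher and 3.63% lower without overlap. An exact permutation test of 3 dishes against 3 cannot go below p = 0.1, and was not run for single probe sets.

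The members had a smaller median standard error than all probe sets, and a larger share of them was bright. Their mean signal was 200 or more for 68 of 101 (67.3%), against 51.7% of all probe sets, and their median standard error was 0.295 on the log2 scale, against 0.361. The 95% interval of the difference lay within 1 log2 unit of 0, a 2-fold difference in either direction, for 65 of the 101 members (64.4%) and for 44.6% of all probe sets. Among probe sets with a mean signal of 200 or more the shares were 86.8% of 68 members and 53.6% of all. For the other members the interval reached past 1 log2 unit. The median log2 difference was 0.01 over the 101 members and 0.01 over all probe sets. The share of differences below 0 was 44.6% of the members and 48.8% of all probe sets.

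Nup153 was read by 2 probe sets, which differed in direction. Probe set 138014_at on U74Cv2 had signals of 2780, 3123 and 3483 in STAT3-MER dishes 1 to 3, against 4920, 4383 and 3754 in WT dishes 1 to 3. Every STAT3-MER dish was below every WT dish, and the means were 3129 ± 351 in STAT3-MER cells and 4353 ± 584 in WT cells (SD, n = 3 each). The log2 difference was -0.47 (SE 0.21, 95% interval -0.93 to -0.01), with an unadjusted p of 0.0475 and an adjusted p of 0.9996 by limma. This probe set is one that the study listed from these same arrays, so its difference is a description and no independent evidence. The study listed it from dChip values. In the deposited signals it did not meet all of the methods' criteria, which are given further below. It fell short of the fold criterion, with a ratio of STAT3-MER to WT of 0.72. Its difference of -1224 and its p of 0.0468 by the methods' t-test were within the other criteria. Without 1 dish the log2 difference ranged from -0.57 to -0.38, and the unadjusted p by limma from 0.0328 (without WT dish 3) to 0.149 (without WT dish 1). Probe set 162752_i_at on U74Bv2 carries a suffix, unlike 138014_at. It had signals of 754, 830 and 1380 in STAT3-MER dishes, against 616, 821 and 1054 in WT dishes. The groups overlapped and the log2 difference was 0.22 (SE 0.31, 95% interval -0.46 to 0.91). It rested on STAT3-MER dish 3 and on WT dish 1, since it was -0.04 without the former and 0.03 without the latter. The intervals of the 2 probe sets overlap, and the difference between them was not tested.

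**Figure D1:**
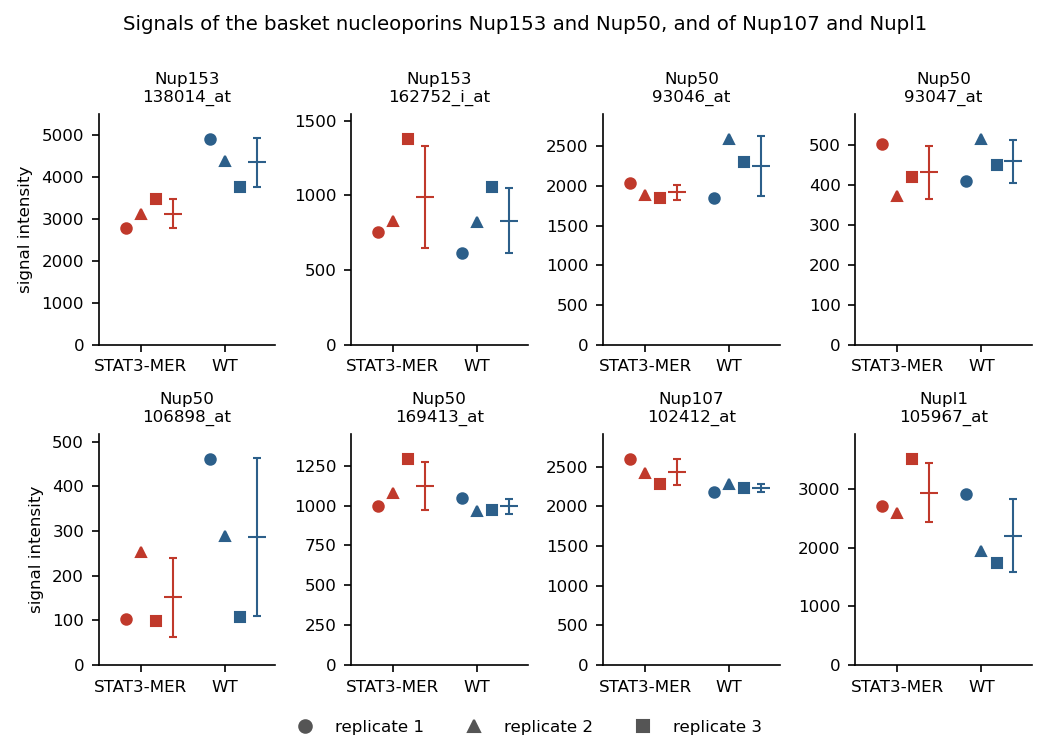
Signal intensity (vertical axis, linear from 0) of 8 nucleoporin probe sets in the 3 STAT3-MER dishes (red) and the 3 WT dishes (blue), with the mean and SD beside the points and the replicate number given by the symbol. The groups stand apart for Nup153 138014_at (2780 to 3483 in STAT3-MER, 3754 to 4920 in WT) and, by a small margin, for Nup107 102412_at, and overlap in the other panels.

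Beside the other nucleoporins, Nup153 138014_at had the smallest p of the 47 nucleoporin probe sets and was number 3 from the bottom by log2 difference. The 2 lower differences were those of probe sets with wide intervals, Nup205 164983_r_at and Nup50 106898_at, both at -0.72. The other Nup153 probe set was number 8 from the top. Over the 47 nucleoporin probe sets, 29 differences were above 0 and 18 below, with a median of 0.06, and the median was also 0.06 over the 45 that do not read Nup153. Nup50, which binds Nup153 and helps to release cargo from importin alpha, was read by 5 probe sets, 3 of which were below 0 and 2 above. Its preferred probe set 93046_at had 2034, 1883 and 1855 in STAT3-MER dishes, against 1846, 2599 and 2305 in WT dishes, a log2 difference of -0.21 (95% interval -0.63 to 0.22). WT dish 1 lay below all STAT3-MER dishes, so the groups overlapped.

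**Figure D2:**
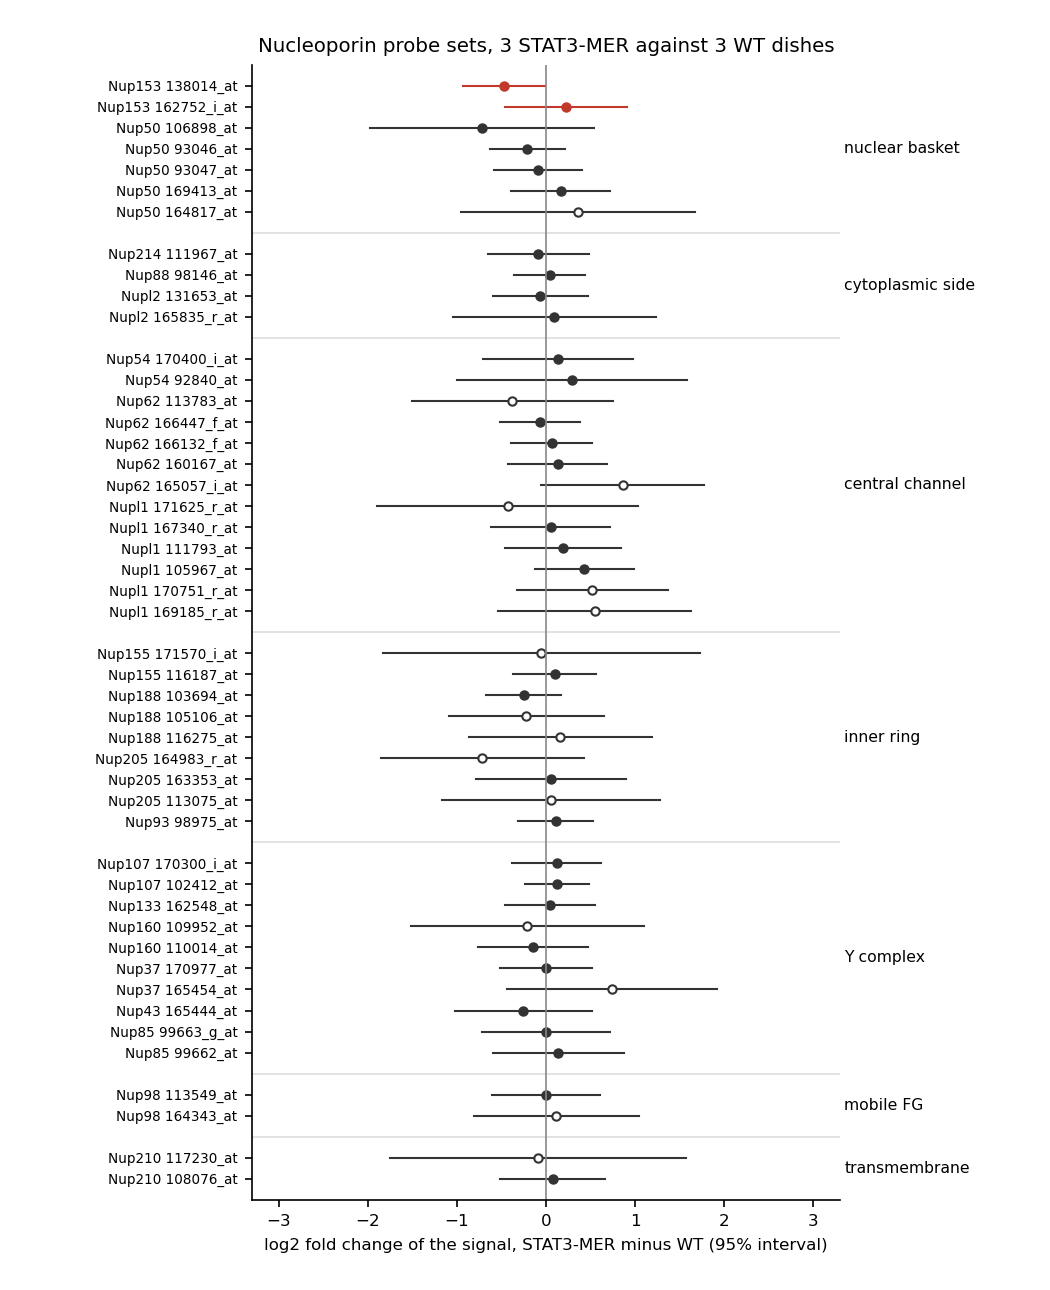
Log2 fold change of the signal (horizontal axis, STAT3-MER minus WT) with its 95% interval for the 47 nucleoporin probe sets, ordered by their place in the pore. Nup153 is red, open circles have a mean signal under 200, and the line at 0 marks no difference. All intervals but that of Nup153 138014_at (-0.93 to -0.01) contain 0.

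The central channel is formed by Nup62, Nup54 and Nupl1 (Nup58), which all carry FG repeats. Of their 13 probe sets, 10 were above 0 and the median was 0.13. The share below 0 was 23.1%, against 48.8% of all probe sets. These 13 read only 3 genes, and 6 of them read Nupl1, so they are not independent. The brightest unsuffixed Nupl1 probe set, 105967_at, had 2716, 2587 and 3516 in STAT3-MER dishes, against 2921, 1950 and 1747 in WT dishes. Its log2 difference was 0.43 (95% interval -0.13 to 0.99, unadjusted p = 0.117 by limma), and WT dish 1 lay within the STAT3-MER range. The 6 probe sets of Nupl1 gave differences from -0.43 to 0.55, with 5 above 0. Its dim probe set 170751_r_at did not overlap between the groups, with 74.9, 73.1 and 118 in STAT3-MER dishes, against 51.4, 58.4 and 43.8 in WT dishes (log2 difference 0.52, 95% interval -0.33 to 1.37).

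Nup62 was read by 5 probe sets, 3 above 0 and 2 below. Probe set 165057_i_at had 319, 182 and 230 in STAT3-MER dishes, against 118, 130 and 103 in WT dishes, and these groups did not overlap. Its log2 difference of 0.86 (95% interval -0.05 to 1.78, unadjusted p = 0.0624 by limma) was the highest of the 101 members. It was also the 1 member that met the methods' criteria when these were applied to the deposited signals. The criteria are a 1.5-fold ratio in either direction, a difference over 100 and a p under 0.1 by the methods' t-test. Of all probe sets, 1.98% met them. The study applied its criteria to dChip values and not to these signals, and its list holds no Nup62 probe set. The unsuffixed probe set 160167_at of the same gene had 4294, 2544 and 4265 in STAT3-MER dishes, against 2844, 3413 and 3658 in WT dishes. These overlapped, with a log2 difference of 0.13 (95% interval -0.43 to 0.69). Nup54 was among the least even members. Its probe set 92840_at had 2750, 659 and 1589 in STAT3-MER dishes, against 566, 1656 and 1647 in WT dishes, so that both groups ranged widely (log2 difference 0.29, 95% interval -0.997 to 1.58).

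The scaffold was read with narrow intervals at several genes. Nup107 of the Y complex, the gene with the STAT core in its promoter, had signals of 2599, 2419 and 2283 in STAT3-MER dishes, against 2182, 2282 and 2232 in WT dishes, at probe set 102412_at. The groups did not overlap, but STAT3-MER dish 3 and WT dish 2 were 1 apart after rounding, and the log2 difference was 0.12 (95% interval -0.24 to 0.48). A second Nup107 probe set, 170300_i_at, gave 0.12 as well (95% interval -0.38 to 0.62) with overlapping groups. The 10 probe sets of the Y complex had a median of 0.02, with 7 above 0. They included Nup37, whose dim probe set 165454_at gave 0.74 (95% interval -0.44 to 1.92) while its preferred probe set 170977_at gave 0.00 (95% interval -0.51 to 0.52). The 9 probe sets of the inner ring had a median of 0.06. Nup188 103694_at, a scaffold protein of the inner ring, had 867, 739 and 827 in STAT3-MER dishes, against 1099, 861 and 963 in WT dishes (log2 difference -0.25, 95% interval -0.68 to 0.17). STAT3-MER dish 1 lay just above WT dish 2, which made the groups overlap.

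On the cytoplasmic side, Nup214 and Nup88, which work in messenger RNA export, were close to 0, at -0.09 (95% interval -0.66 to 0.48) and 0.04 (95% interval -0.36 to 0.44). Nup98, an FG nucleoporin that is also found away from the pore, gave 0.00 (95% interval -0.61 to 0.61) at its preferred probe set. Nup210 is a transmembrane nucleoporin that is known to be induced when mouse ES cells differentiate. Its preferred probe set had 1128, 1814 and 1391 in STAT3-MER dishes, against 1323, 1711 and 1074 in WT dishes. These ranges overlapped almost entirely, with a log2 difference of 0.07 (95% interval -0.51 to 0.66).

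The importins had a median of -0.10 over 32 probe sets, with 14 above 0 and 18 below. Among the 22 with a mean signal of 200 or more it was 0.01. The 15 importin alpha probe sets had a median of -0.07, the 2 of importin beta -0.03 and the 15 importin beta-like ones -0.11. Kpna2, the importin alpha of undifferentiated ES cells, had 7599, 4163 and 4668 in STAT3-MER dishes, against 3832, 5628 and 4686 in WT dishes. Its highest and lowest signals were thus those of STAT3-MER dish 1 and WT dish 1, and the log2 difference of 0.18 (95% interval -0.43 to 0.79) was -0.08 without STAT3-MER dish 1.

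Kpna3, another importin alpha, had 1808, 1516 and 1338 in STAT3-MER dishes, against 1950, 1881 and 2245 in WT dishes, at probe set 96010_at. Every STAT3-MER dish was below every WT dish, and the log2 difference was -0.38 (95% interval -0.81 to 0.04, unadjusted p = 0.0717 by limma). The 2 other Kpna3 probe sets were dim, at -0.40 and 0.33, and overlapped. Kpna6 did not overlap at probe set 165535_f_at, which had 1284, 1064 and 1434 in STAT3-MER dishes, against 1973, 1663 and 1446 in WT dishes (log2 difference -0.42, 95% interval -0.97 to 0.14). The gap between STAT3-MER dish 3 and WT dish 3 was narrow, the probe set carries a suffix, and the preferred Kpna6 probe set 160624_at gave 0.11 (95% interval -0.60 to 0.81).

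Kpna4 encodes an importin alpha known to carry STAT3 in human cells. Its preferred probe set 107588_at had 1170, 739 and 961 in STAT3-MER dishes, against 831, 611 and 962 in WT dishes. The groups overlapped, with a log2 difference of 0.25 (95% interval -0.37 to 0.86). Kpna1 was wide at 101370_at, with 1383, 317 and 540 in STAT3-MER dishes, against 237, 569 and 512 in WT dishes (log2 difference 0.56, 95% interval -0.64 to 1.76), and close to 0 at its preferred probe set 108069_at (-0.07, 95% interval -0.63 to 0.48). STAT3-MER dish 1 set the mean of the first of these. Kpna7, an importin alpha of the oocyte and early embryo, had the lowest difference of the preferred probe sets, at -0.73, but with a mean signal of 110 ± 81.3 in STAT3-MER cells and 205 ± 123 in WT cells (SD, n = 3 each) the interval ran from -2.03 to 0.57.

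**Figure D3:**
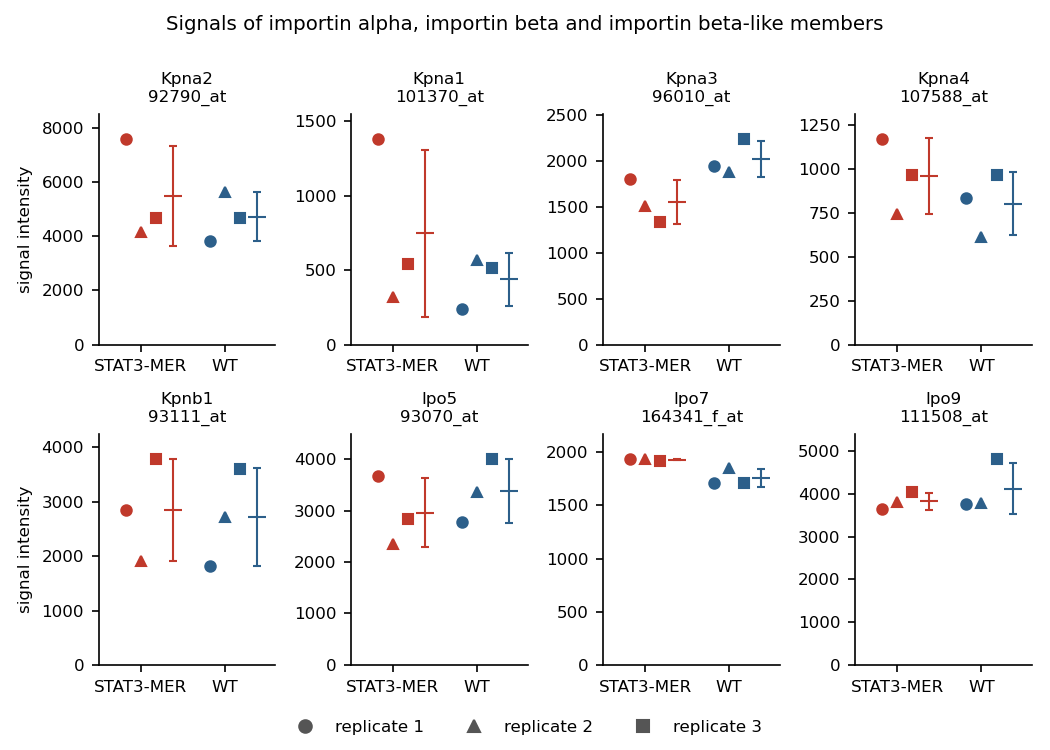
Signal intensity (vertical axis, linear from 0) of 8 importin probe sets in the 3 STAT3-MER dishes (red) and the 3 WT dishes (blue), with the mean and SD beside the points and the replicate number given by the symbol. The groups stand apart for Kpna3 96010_at (1338 to 1808 in STAT3-MER, 1881 to 2245 in WT) and for Ipo7 164341_f_at, whose STAT3-MER dishes almost coincide.

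Importin beta itself, Kpnb1, had 2841, 1907 and 3787 in STAT3-MER dishes, against 1822, 2723 and 3610 in WT dishes. The 2 groups covered the same range, with a log2 difference of 0.06 (95% interval -0.67 to 0.80). Of the importin beta-like receptors, which carry ribosomal proteins, histones and other cargo without importin alpha, Ipo5 93070_at had 3679, 2353 and 2845 in STAT3-MER dishes, against 2781, 3358 and 4006 in WT dishes (log2 difference -0.20, 95% interval -0.72 to 0.32). Ipo5 was below 0 at both of its probe sets. Ipo7 164341_f_at had 1932, 1937 and 1921 in STAT3-MER dishes, against 1707, 1850 and 1709 in WT dishes, and these did not overlap. The log2 difference was 0.14 (95% interval -0.29 to 0.56), while the unsuffixed Ipo7 probe set 93970_at gave -0.11 (95% interval -0.59 to 0.36).

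Ipo9 showed how far probe sets of a gene can part. Probe set 111508_at had 3641, 3798 and 4038 in STAT3-MER dishes, against 3758, 3792 and 4814 in WT dishes (log2 difference -0.10, 95% interval -0.55 to 0.36). Probe set 116965_at had 35.9, 34.1 and 475 in STAT3-MER dishes, against 170, 412 and 388 in WT dishes, and its log2 difference of -1.35 (95% interval -3.07 to 0.37) was the lowest of all members. It was -2.32 without STAT3-MER dish 3 (unadjusted p = 0.0024 by limma) and -0.85 without STAT3-MER dish 2. Here STAT3-MER dish 3 was the highest dish of the 6 and the other STAT3-MER dishes the lowest. Of the 31 genes with 2 or more probe sets, 12 had all of them on 1 side of 0 (7 above, 5 below) and 19 were mixed.

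**Figure D4:**
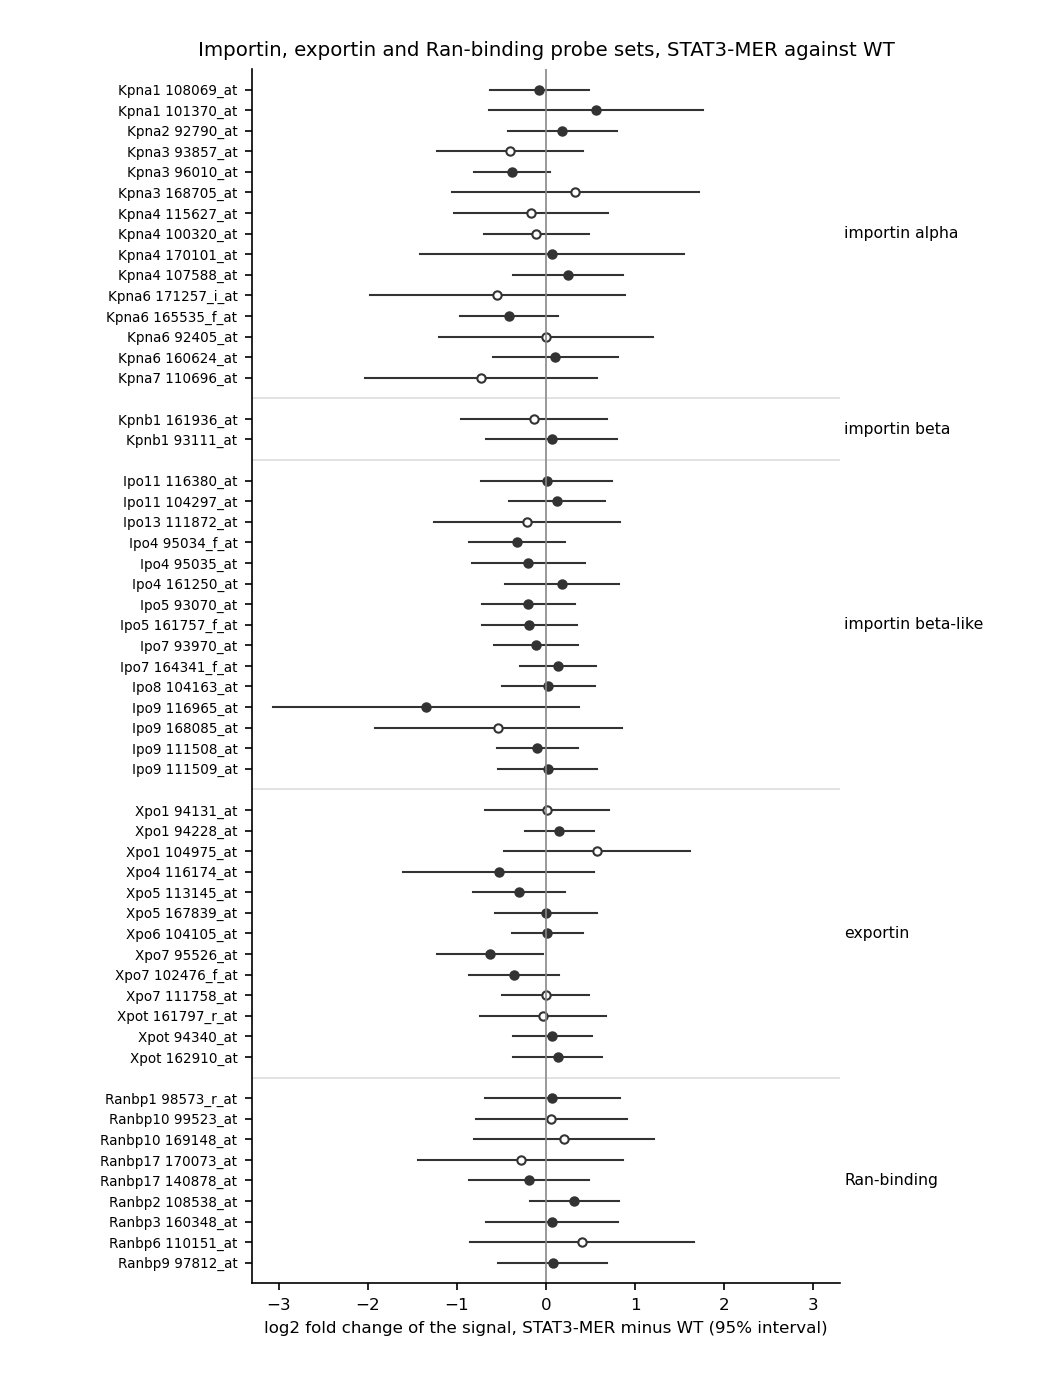
Log2 fold change of the signal (horizontal axis, STAT3-MER minus WT) with its 95% interval for the 54 importin, exportin and Ran-binding probe sets, by group. Open circles have a mean signal under 200. All intervals but that of Xpo7 95526_at (-1.23 to -0.04) contain 0.

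The 13 exportin probe sets had a median of 0.00, with 6 above 0 and 7 below. Xpo7, a broad exportin, had the smallest p of all members. Its probe set 95526_at had 1196, 744 and 909 in STAT3-MER dishes, against 1121, 1459 and 1913 in WT dishes. STAT3-MER dish 1 was above WT dish 1, so the groups overlapped, and the log2 difference was -0.63 (SE 0.26, 95% interval -1.23 to -0.04) with an unadjusted p of 0.0396 by limma. Probe set 102476_f_at of the same gene had 1503, 1373 and 1348 in STAT3-MER dishes, against 1350, 2246 and 1976 in WT dishes (log2 difference -0.36, 95% interval -0.87 to 0.14), and another one, with signals under 25, gave -0.01.

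Xpo1 (CRM1), the exportin of the leucine-rich nuclear export signal, had 5399, 4575 and 4326 in STAT3-MER dishes, against 4162, 4318 and 4349 in WT dishes, at 94228_at. The ranges met between 4326 and 4349, and the log2 difference was 0.15 (95% interval -0.24 to 0.53). Xpo5, which exports microRNA precursors, gave -0.30 (95% interval -0.82 to 0.21) and 0.00 (95% interval -0.57 to 0.57) at its probe sets 113145_at and 167839_at. Xpo4, the exportin of eIF5A, gave -0.53 (95% interval -1.60 to 0.54). The actin exportin Xpo6 and the transfer RNA exportin Xpot were close to 0, at 0.01 (95% interval -0.39 to 0.41) and 0.07 (95% interval -0.38 to 0.51).

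The 9 probe sets of Ran-binding proteins had a median of 0.07, with 7 above 0 and 2 below. Ranbp2 (Nup358), the nucleoporin of the cytoplasmic filaments, had 1979, 1372 and 1958 in STAT3-MER dishes, against 1287, 1427 and 1472 in WT dishes. STAT3-MER dish 2 lay within the WT range, and the log2 difference was 0.32 (95% interval -0.19 to 0.82). Ranbp1, which helps to release Ran from transport receptors, had 4983, 3264 and 2956 in STAT3-MER dishes, against 2147, 4790 and 4036 in WT dishes (log2 difference 0.07, 95% interval -0.69 to 0.83). Ranbp3, a cofactor of Xpo1, gave 0.06 (95% interval -0.68 to 0.81). The genes set apart, Nupr1 and Nupr1l, gave -0.13 (95% interval -1.10 to 0.85) and 0.28 (95% interval -0.42 to 0.98).

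Genes of the pathway with other names were read by 62 probe sets of 29 genes. They were listed by role, with earlier results of these data known. By limma 0 of them passed the adjusted threshold, 0 were higher and 2 lower at an unadjusted p of 0.05, and 5 (8.06%) did not overlap. Over all probe sets 3.45% had an unadjusted p under 0.05 and 8.13% did not overlap. Ran itself (101254_at) had 28174, 25037 and 34400 in STAT3-MER dishes, against 38929, 34464 and 27162 in WT dishes, and overlapped (log2 difference -0.20). The transport receptor Tnpo2 (104071_at) had 2274, 2138 and 2122 in STAT3-MER dishes, against 1687, 1817 and 1664 in WT dishes. These did not overlap, with a log2 difference of 0.33 (unadjusted p = 0.0661, adjusted p = 0.9996 by limma). The 2 lower ones were dim probe sets of the messenger RNA export receptor Nxf1 (114853_at), with 74.05, 66.5 and 49.5 in STAT3-MER dishes against 311, 192 and 236 in WT dishes, and of Smpd4 (115491_at), with 27.0, 19.4 and 22.1 in STAT3-MER dishes against 135, 88.5 and 74.5 in WT dishes. The brighter Nxf1 probe set 101079_at gave 0.08.

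Within the groups the members shared a pattern over the dishes of U74Av2. Of 31 members on this chip with a mean signal of 200 or more, 24 (77.4%) were highest in STAT3-MER dish 1 among the STAT3-MER dishes, against 34.0% of all 5549 such probe sets. Among the WT dishes 22 of the 31 (71.0%) were lowest in WT dish 1, against 34.1% of all. The pattern held for 9 of 10 nucleoporins, 8 of 13 importins, 5 of 5 exportins and 2 of 3 Ran-binding proteins at STAT3-MER dish 1, and Kpna2, Nup54 and Kpna1 above are examples. STAT3-MER dish 1 was the dish with the lowest feeder sum (14970), and 15 of the 17 feeder markers were lowest there among the STAT3-MER dishes. In the WT group the lowest feeder sum was that of WT dish 2. There 14 of the 31 members (45.2%) were highest, against 33% of all such probe sets. In WT dish 3, which had the highest WT feeder sum, 13 members (41.9%) were highest, against 28.3% of all. WT dishes 1 and 3 had similar feeder sums (54393 and 56595), with 22 and 5 of the 31 members lowest. With the mean level of the feeder markers as a covariate the log2 difference was 0.07 for Nup54, 0.31 for Kpna1 and 0.06 for Kpna2, while Kpna3 was at -0.41 and Xpo7 at -0.69. The first 3 of these were picked as highest in STAT3-MER dish 1, where that level was lowest. A smaller difference with the covariate thus followed in part from the choice. Kpnb1 was at 0.05 with it and 0.06 without, Nup107 102412_at at 0.10 and 0.12, and Ran at -0.21 and -0.20. The part of the feeder cells in these levels was not tested further. On U74Bv2, 9 of 22 such members (40.9%) were highest in STAT3-MER dish 1, against 36% of all such probe sets. On U74Cv2, 4 of 15 (26.7%) were highest there, against 36.3% of all. In STAT3-MER dish 3 of that chip it was 9 of the 15 (60%), against 31% of all. Replicate numbers may not name the same dishes on all chips, so signals were not joined across chips.

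**Figure D5:**
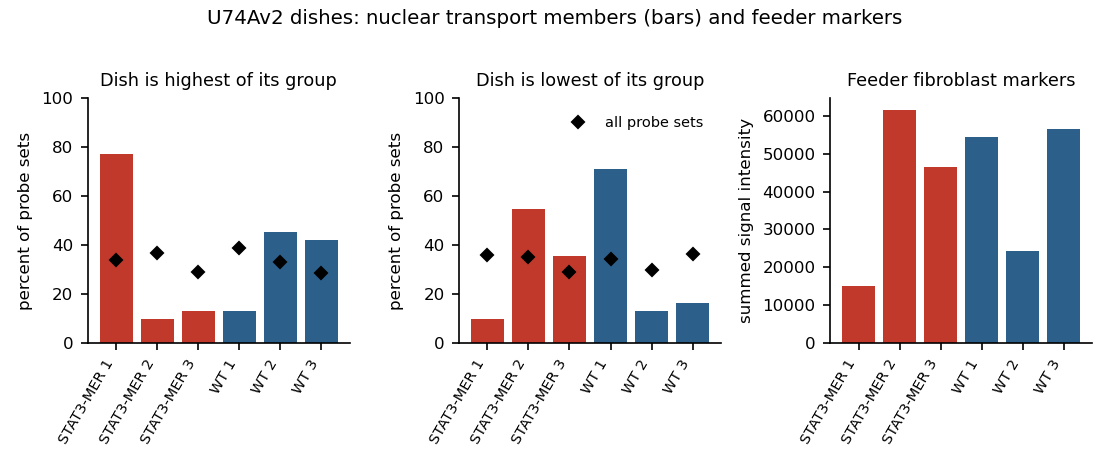
Left and middle, percent of the 31 U74Av2 members with a mean signal of 200 or more that were highest or lowest in each dish of its group (bars, STAT3-MER red, WT blue), with the same percent over all 5549 probe sets of that brightness as black diamonds. Right, summed signal intensity of 17 feeder fibroblast markers on the same arrays. STAT3-MER dish 1 was highest for 77.4% of the members and had the lowest feeder sum.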

How the data were processed

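The authors amplified total RNA in 2 rounds, hybridized it and deposited 1 linear signal intensity per probe set and array, without detection calls. MAS5 is the tool given by the submitters' processing notes. Groups and replicate numbers come from the labels, and a STAT3-MER array of U74Av2 without a number was taken as replicate 2. The labels of an array disagreed on its chip, and it was taken as U74Cv2 by the probe sets it lists. Arrays of a chip were brought to a common trimmed mean (2% trimmed at each end), and 198 control probe sets were then removed. Log2(signal + 32) was fitted with limma 3.58.1 in R 4.3.3 (two-sided; lmFit, then eBayes with a variance trend, each chip fitted separately), with Benjamini-Hochberg adjustment over 36701 probe sets. Intervals are 95% intervals of this fit. P-values measure the spread between dishes of 1 line per group. Gene names come from the chip annotation, and all 103 members matched RefSeq by gene ID. Named are all Nup153 probe sets, members whose groups did not overlap, the 10 with the smallest p, other probe sets of these genes, and for any member gene its preferred probe set (without suffix, then brightest). Members and lists were chosen with earlier results of these data known. The number of arrays limits the precision. Alternatives were other scalings, pseudocounts of 8 and 100, a filter at a mean signal of 200, no variance trend, adjustment within chips, a replicate block, each dish left out, the methods' t-test (unequal variances allowed), other ways to summarize a gene and, added after the data were seen, a feeder covariate.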

Additional observations from a re-analysis of the deposited data

How the results depend on the processing

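No member passed the adjusted threshold under any scaling, pseudocount, filter, variance model, feeder covariate, replicate block or left-out dish, and the methods' t-test after adjustment gave 0 members and 0 of all probe sets. At its own threshold (p under 0.1) that test gave 5 of 101 members (2 higher, 3 lower) and 2006 of all probe sets (5.47%). With the fold and difference criteria it gave 1 member and 725 probe sets. Without 1 dish the count over all probe sets was 1 to 2. The count of members at an unadjusted p of 0.05 was 2, both lower. It was 1 with quantile normalization (Xpo7 95526_at, lower), with scaling to the array median or with the replicate block (Nup153 138014_at, lower) and without the variance trend (Nup62 165057_i_at, higher), and 0 to 3 without 1 dish: 0 without STAT3-MER replicate 2 or WT replicate 2, 1 without STAT3-MER replicate 3 or WT replicate 3. Family medians moved by less than the spread between dishes under all settings but 1: without a dish the nucleoporin median ranged from -0.056 (without STAT3-MER replicate 1) to 0.12.

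Of 30 single probe sets followed, 0 changed sign under settings other than a left-out dish. With 1 dish left out, 5 did, and their ranges were -0.036 to 0.41 for Nup153 162752_i_at, -0.20 to 0.83 for Nup54 92840_at, -0.079 to 0.35 for Kpna2, -0.19 to 0.32 for Kpnb1 93111_at and -0.16 to 0.018 for Ipo9 111508_at. Nup153 138014_at stayed between -0.57 and -0.38, with an unadjusted p by limma of 0.0294 to 0.151 over all settings: it was 0.151 without the variance trend, 0.0966 with quantile normalization, and above 0.05 without any 1 dish other than WT replicate 3. That of Xpo7 95526_at was 0.0159 to 0.142.

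The replicate numbers were not taken to pair the dishes, since same-numbered deviations correlated above 0.1 for every pair on U74Bv2 only. Correlations of same-numbered deviations were -0.30, -0.34 and 0.29 on U74Av2, 0.18, 0.21 and 0.13 on U74Bv2, and 0.11, 0.13 and 0.07 on U74Cv2. On U74Bv2 and U74Cv2 every dish correlated best with its own number, while on U74Av2 the highest values were 0.46 (STAT3-MER 2 with WT 1) and 0.41 (STAT3-MER 1 with WT 2). Whether a number marks the same dish on all chips was not tested. With the replicate block the count of all probe sets called was 1, that of members 0, and the unadjusted p was 0.0417 for Nup153 138014_at and 0.0720 for Xpo7 95526_at by limma. On U74Av2, the chip of Xpo7 95526_at, this block joins dishes numbered 1 and 2 whose deviations correlated below 0. Its p is therefore no check of Xpo7, and no block with crossed numbers was fitted. The main fit used no pairing on any chip, so its intervals include any variation that same-numbered dishes shared. The highest correlation of arrays between the groups was 0.975 on U74Av2, 0.920 on U74Bv2 and 0.891 on U74Cv2. Within the groups the highest was 0.961, 0.899 and 0.882. The causes of the shifts between settings were not tested. Signals carry no detection calls, so values of dim probe sets may be background.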
